A study of Mus musculus with 21 samples.

Results

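The values below concern 10 genes of the p53 pathway and of the control of apoptosis in AGRP and POMC neurons, namely *Cdkn1a* (which encodes p21), *Trp53* (p53), *Mdm2*, *Gadd45a*, *Atm*, *Bcl2*, *Bcl2l1*, *Mcl1*, *Cflar* and *Bax*. They were chosen by symbol with the food deprivation results of AGRP neurons in these libraries already known, from a table of 35266 genes, and 10 of the 10 passed the count filter (CPM over 1 in at least 3 libraries) that left 16513 genes. RNA was sequenced from hand-sorted fluorescent neurons of the hypothalamic arcuate nucleus in male C57BL/6J mice aged 46 to 56 postnatal days, with AGRP neurons taken from NPY-hrGFP mice and POMC neurons from Pomc-GFP mice. Every mouse was moved to a fresh cage for 24 hours and had either food ad libitum (fed, n = 5 mice for AGRP and 5 for POMC neurons) or water only (FD, n = 6 mice for AGRP and 5 for POMC neurons). Each library held the pooled neurons of 1 mouse, so the fed and FD values come from different animals, and AGRP neurons were recognised by a reporter of *Npy*.

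AGRP neurons promote feeding and become more active when food is withheld, whereas POMC neurons restrain feeding. The transcription factor p53 is held at a low level by the ubiquitin ligase MDM2, and when stress kinases such as ATM act on p53 it is stabilised and switches on target genes. Among those targets are p21, an inhibitor of cyclin-dependent kinases, GADD45A, a stress sensor, and BAX, which permeabilises mitochondria, while BCL2, BCL-XL (from *Bcl2l1*) and MCL1 oppose BAX and c-FLIP (from *Cflar*) opposes caspase activation at death receptors. In neurons, which no longer divide, p21 is also known from settings outside the cell cycle.

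Libraries held 9822298 to 37663979 gene counts, and 3 counts, the level treated as the floor, correspond to 0.0912 to 0.295 normalized CPM (counts per 1000000, scaled by TMM). This floor covers counting error only, since the RNA was amplified without molecular identifiers, whereas the SE and 95% intervals of fold changes come from the spread between mice. *Agrp* averaged 3455 TPM (transcripts per 1000000, corrected for gene length) in fed and 12050 TPM in FD AGRP libraries against 15.5 and 46.0 TPM in fed and FD POMC libraries, and *Pomc* averaged 16029 and 10743 TPM in fed and FD POMC libraries against 43.5 and 32.7 TPM in fed and FD AGRP libraries. The 16 markers of astrocytes, oligodendrocytes, microglia and endothelial cells summed to 36.6 to 53.7 TPM in fed AGRP, 28.4 to 45.5 TPM in FD AGRP, 32.1 to 39.4 TPM in fed POMC and 26.4 to 57.5 TPM in FD POMC libraries, most of it *Mbp*. *C1qa* was at 0 in every library, *Cldn5* in all but FD AGRP libraries, and *Slc39a12* and *Cx3cr1* in FD AGRP libraries. Of the 11 markers tested in AGRP neurons, *Aldh1l1* passed as higher and *Slc39a12* as lower in FD mice, and their part in the results was not tested.

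Promoter sequences are shown because several of the genes are textbook p53 targets, so that the windows with a match to the p53 decamer, the repeated unit of a p53 response element, can be read beside the values. RefSeq promoter windows (GRCm38.p6, 250 bases before to 50 after each start) were matched for 10 of the 10 genes, 13 windows in all. The decamer, searched without mismatch and identical on both strands, was present in 5 windows of 5 genes, against 8.36% of all 32851 windows. It lay 73 and 51 bases before the start of *Cdkn1a*, 40 before *Gadd45a*, 186 before *Mdm2*, 75 before *Trp53* and 201 before *Bax*. Each sequence below is given on the strand of the gene, with the decamers in capitals.
Cdkn1a, chr17:29090876-29090967 (+): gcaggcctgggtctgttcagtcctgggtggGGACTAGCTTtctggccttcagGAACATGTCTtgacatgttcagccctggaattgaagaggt
Gadd45a, chr6:67037408-67037477 (-): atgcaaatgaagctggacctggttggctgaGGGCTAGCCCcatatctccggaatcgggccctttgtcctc
Mdm2, chr10:117710905-117710974 (-): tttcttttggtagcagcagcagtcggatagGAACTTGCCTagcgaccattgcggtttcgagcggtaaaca
Trp53, chr11:69580254-69580323 (+): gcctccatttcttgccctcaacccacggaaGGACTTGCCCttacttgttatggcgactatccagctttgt
Bax, chr7:45467060-45467129 (-): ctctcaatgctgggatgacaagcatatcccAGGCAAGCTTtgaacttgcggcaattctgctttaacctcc

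No decamer was found in these windows of *Atm*, *Bcl2*, *Bcl2l1*, *Mcl1* or *Cflar*. The glucocorticoid receptor motif AGAACA, on either strand, was in none of the 13 windows and in 19.0% of all windows, and the GC box GGGCGG was in 7 of the 13 windows and in 35.7% of all windows. A match or its absence describes these letters and windows only.

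The order of the genes by level changed with feeding state in AGRP neurons, as given here per gene length in TPM. In fed AGRP libraries *Mdm2* (109 ± 23.0 TPM, SD, n = 5), *Trp53* (97.4 ± 33.6 TPM) and *Mcl1* (93.8 ± 19.5 TPM) were the most abundant of the 10, and *Cdkn1a* (8.02 ± 12.5 TPM) and *Cflar* (6.48 ± 4.64 TPM) the least. In FD AGRP libraries *Cdkn1a* led at 548 ± 173 TPM (n = 6), with *Mdm2* at 148 ± 35.2 TPM next and *Atm* last at 7.72 ± 4.69 TPM. By mean TPM over all 35266 genes, *Cdkn1a* ranked 11255 in fed AGRP, 219 in FD AGRP, 6472 in fed POMC and 7446 in FD POMC libraries.

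*Cdkn1a* (ENSMUSG00000023067, chromosome 17, 29090979 to 29100722, mm10) stood at 0.870, 1.43, 1.705, 2.13 and 19.4 normalized CPM in the 5 fed AGRP libraries. In the 6 FD AGRP libraries the lowest value was 215, the median 469 and the highest 577 normalized CPM. The fed and FD AGRP ranges were far apart, and fed replicate 5, at 19.4, was the fed library nearest to the FD range. That library was made from 214 sorted cells, the most of any in the series, and whether this bears on the value was not tested. The difference corresponded to 82.2-fold higher normalized CPM in FD AGRP neurons (log2 fold change 6.36 ± 0.69, SE), and without fed replicate 5 the log2 fold change was 8.09. Within mice of postnatal day 46 and 47 (2 fed, 3 FD) it was 5.34, and within those of day 51 to 56 (3 fed, 3 FD) it was 8.24. In AGRP libraries the younger mice were those with spike-in RNA dosed by cell number, and the older those given a fixed volume. Age and spike-in dosing therefore cannot be told apart in this split, here or for the other genes below. All POMC mice were of day 51 to 56. Scaling to the spike-in volume in place of TMM gave 4.15, a scaling that moved the median gene by −0.93. Fewer cells with a transcript and less of it per cell cannot be told apart in these pooled neurons. In POMC neurons *Cdkn1a* stood at 21.4, 23.6, 23.7, 4.14 and 22.9 normalized CPM in fed and 21.1, 5.44, 7.28, 20.5 and 18.5 normalized CPM in FD libraries. These ranges overlapped, and the log2 fold change of −0.40 ± 0.56 (95% interval −1.58 to 0.77, from 17 residual degrees of freedom) did not pass the test (edgeR quasi-likelihood, Benjamini-Hochberg q = 0.849). By group mean the order was FD AGRP (420 ± 149, SD), fed POMC (19.1 ± 8.43), FD POMC (14.6 ± 7.59) and fed AGRP (5.12 ± 8.02) normalized CPM, and every neighbouring pair after the first overlapped.

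**Figure D1:**
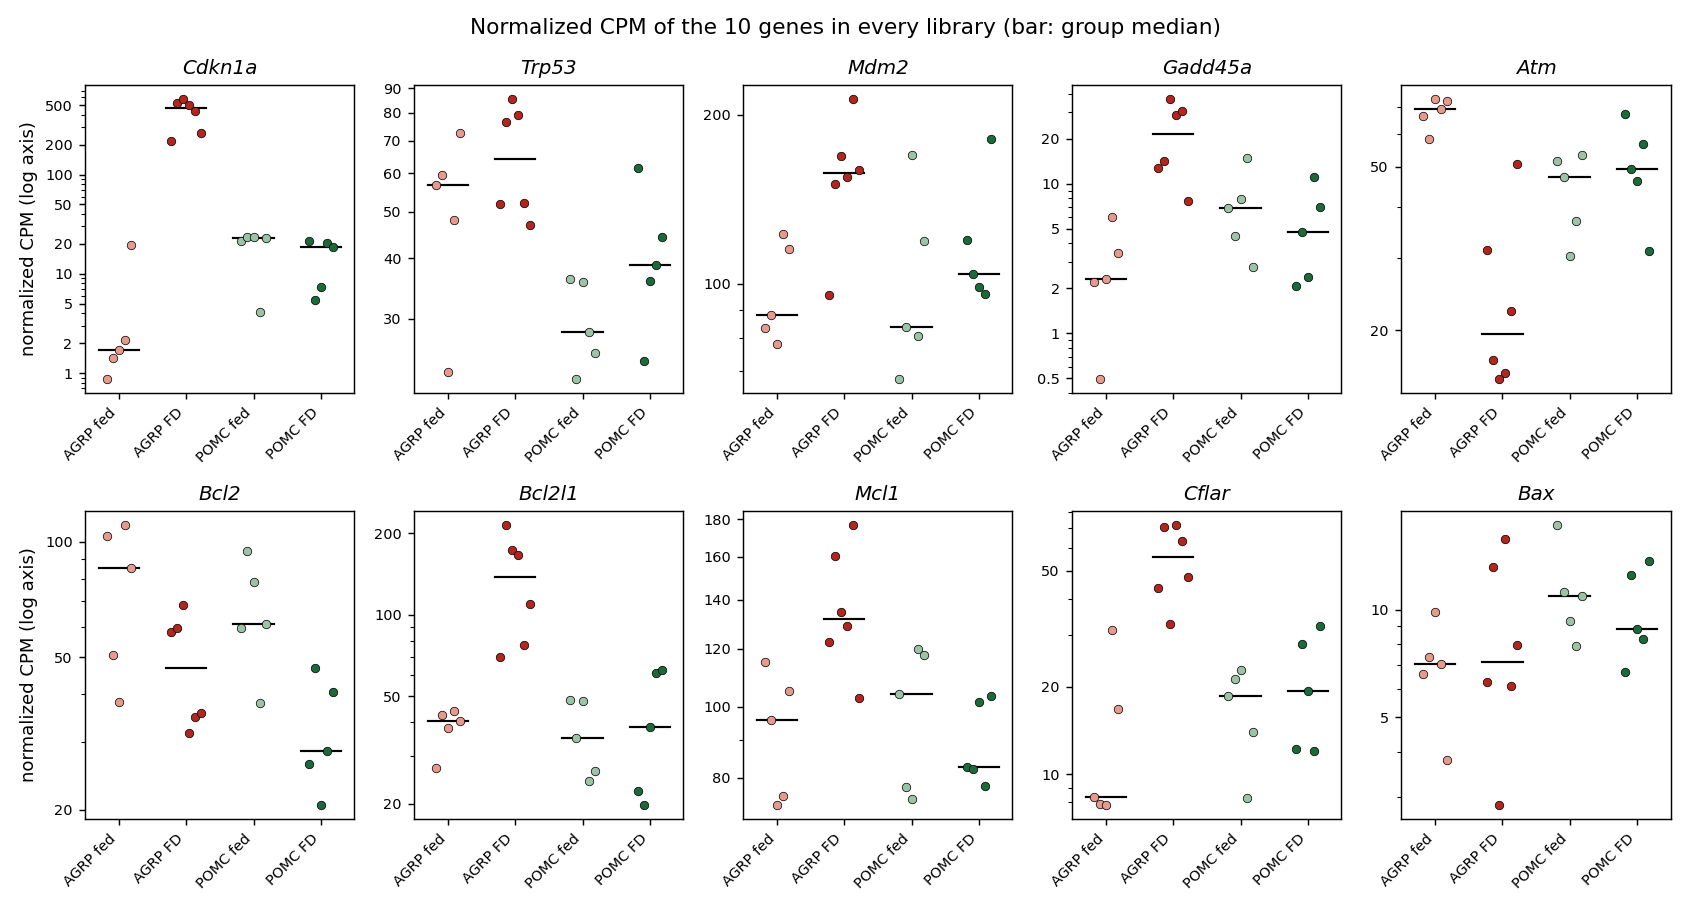
Normalized CPM on a log axis for each of the 10 genes, with 1 point per library, the 4 groups on the horizontal axis and a bar at the group median. *Cdkn1a* lies between 215 and 577 in FD AGRP libraries and at or below 23.7 in every other library.

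The genes of p53 itself and of its ligase overlapped between fed and FD mice in both cell types. *Trp53* (ENSMUSG00000059552, chromosome 11, 69580359 to 69591873) stood at 56.7, 59.5, 23.3, 48.0 and 72.8 normalized CPM in fed AGRP libraries and between 46.9 and 85.5, with a median of 64.4, in FD AGRP libraries. It stood at 36.3, 22.5, 35.8, 28.1 and 25.5 normalized CPM in fed POMC and 61.6, 24.6, 36.0, 38.8 and 44.4 normalized CPM in FD POMC libraries. All of these fed and FD ranges overlapped, with log2 fold changes of 0.33 ± 0.27 in AGRP and 0.47 ± 0.28 in POMC neurons (95% interval −0.13 to 1.07, q = 0.530 in the latter). *Mdm2* (ENSMUSG00000020184, chromosome 10, 117688888 to 117710758), the ligase that limits p53 and is also its target, ranged from 78.4 to 123 normalized CPM in fed AGRP and from 95.5 to 213 in FD AGRP libraries, which overlapped. Its log2 fold change was 0.69 ± 0.23 in AGRP neurons, with 0.21 within day 46 and 47 and 1.08 within day 51 to 56. That change missed the threshold (edgeR quasi-likelihood, q = 0.0517). In 5 of 14 other settings it passed, limma-voom (q = 0.0410) and DESeq2 (q = 0.0372) among them. The genes were selected with this contrast in view, so these q values are a description and support nothing. In POMC neurons *Mdm2* ranged from 67.8 to 169 normalized CPM in fed and from 95.8 to 181 in FD libraries, a log2 fold change of 0.20 ± 0.24 (95% interval −0.30 to 0.70, q = 0.812).

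*Atm* (ENSMUSG00000034218, chromosome 9, 53439149 to 53536740), the kinase that signals DNA breaks to p53, was the member with the opposite sign to *Cdkn1a* and no overlap. It stood at 66.5, 58.6, 73.2, 69.3 and 72.3 normalized CPM in fed AGRP libraries, and in FD AGRP libraries the lowest value was 15.2, the median 19.5 and the highest 50.7. FD replicates 1 and 6 held the highest *Atm* values of the FD AGRP group, at 31.4 and 50.7, and also the lowest *Cdkn1a* values, at 215 and 260. The same libraries held the lowest *Gadd45a* values, at 12.7 and 7.67, whereas the lowest *Cflar* value was in FD replicate 3. The pattern was thus not particular to *Atm* and *Cdkn1a*, and its cause was not tested. The log2 fold change was −1.42 ± 0.28, with −1.75 within day 46 and 47 and −1.16 within day 51 to 56. In POMC neurons *Atm* stood at 51.8, 47.1, 30.3, 36.9 and 53.4 normalized CPM in fed and 67.4, 49.4, 46.1, 56.9 and 31.2 in FD libraries. The 2 POMC ranges overlapped, with a log2 fold change of 0.19 ± 0.29 (95% interval −0.42 to 0.81, q = 0.867).

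*Gadd45a* (ENSMUSG00000036390, chromosome 6, 67035096 to 67037406), a stress-induced gene whose product binds p21 and PCNA, stood at 2.20, 0.495, 2.31, 6.02 and 3.43 normalized CPM in fed AGRP libraries. In FD AGRP libraries the lowest value was 7.67, the median 21.5 and the highest 36.8, so that the groups did not overlap. The log2 fold change was 2.91 ± 0.63, with 2.16 within day 46 and 47 and 3.74 within day 51 to 56. Reads were counted without strand and the locus overlaps an antisense gene, *E230016M11Rik*, so *Gadd45a* values are uncertain to that extent. *E230016M11Rik* itself ranged from 0.804 to 6.09 normalized CPM in fed and from 1.55 to 13.6 in FD AGRP libraries, which overlapped. In POMC neurons *Gadd45a* stood at 6.91, 4.48, 7.90, 14.9 and 2.77 normalized CPM in fed and 2.08, 4.73, 2.37, 11.1 and 6.96 in FD libraries, with a log2 fold change of −0.45 ± 0.60 (95% interval −1.71 to 0.82, q = 0.842).

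*Bcl2l1* (ENSMUSG00000007659, chromosome 2, 152780668 to 152831728), which encodes BCL-XL, stood at 27.0, 42.7, 38.2, 44.1 and 40.5 normalized CPM in fed AGRP libraries and between 69.8 and 215, with a median of 138, in FD AGRP libraries. Those ranges did not overlap, and the log2 fold change was 1.81 ± 0.32, with 1.84 within day 46 and 47 and 1.71 within day 51 to 56. In POMC neurons *Bcl2l1* stood at 48.5, 35.0, 48.0, 24.3 and 26.4 normalized CPM in fed and 22.3, 19.8, 38.5, 60.7 and 62.5 in FD libraries. The POMC groups overlapped and the log2 fold change of 0.16 ± 0.32 (95% interval −0.52 to 0.84, q = 0.907) changed sign when FD replicate 4 (−0.03) or 5 (−0.05) was left out.

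*Bcl2* (ENSMUSG00000057329, chromosome 1, 106538178 to 106714274), the founding anti-apoptotic member of the family, had lower means in FD libraries of both cell types. It stood at 104, 50.8, 38.1, 111 and 85.5 normalized CPM in fed AGRP libraries and between 31.8 and 68.6, with a median of 47.0, in FD AGRP libraries, a log2 fold change of −0.69 ± 0.29. In POMC neurons it stood at 59.6, 94.9, 78.4, 38.1 and 61.0 normalized CPM in fed and 26.3, 46.8, 20.6, 28.5 and 40.5 in FD libraries. Fed and FD ranges overlapped in both cell types. The POMC log2 fold change of −1.03 ± 0.31 (95% interval −1.68 to −0.38) was the largest in size of the 10 genes in POMC neurons and missed the threshold after adjustment over all genes (edgeR quasi-likelihood, q = 0.128). ERCC spike-in RNA had been added at 1 µl, at 10 µl or by cell number, and within the POMC libraries given 1 µl (3 fed, 3 FD) it was −0.93. The other POMC libraries were dosed by cell number in fed (2) and at 10 µl in FD mice (2), so dosing and feeding state cannot be told apart in those. With the spike-in set as a block the *Bcl2* change in POMC neurons was −0.67 (edgeR quasi-likelihood, q = 0.343). Per gene length, *Bcl2l1* and *Bcl2* were at 34.6 ± 5.50 and 30.03 ± 13.1 TPM in fed AGRP libraries, and at 101 ± 38.2 and 15.7 ± 5.70 TPM in FD AGRP libraries.

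*Mcl1* (ENSMUSG00000038612, chromosome 3, 95658721 to 95663176), a short-lived survival factor, ranged from 73.5 to 115 normalized CPM in fed and from 103 to 177 in FD AGRP libraries. The ranges overlapped, and the log2 fold change of 0.56 ± 0.18 became −0.46 when libraries were scaled to the spike-in volume. Among the 11 fits that left out 1 AGRP library it ranged from 0.48 to 0.65 and was past q of 0.05 in 3, those without FD replicate 1 or 6 or fed replicate 1, and it was past it in 5 of 14 other settings. These counts are a description only, since *Mcl1* was selected with this contrast in view. In POMC neurons it ranged from 74.8 to 120 normalized CPM in fed and from 78.1 to 104 in FD libraries (log2 fold change −0.14 ± 0.19, 95% interval −0.54 to 0.26, q = 0.847). *Cflar* (ENSMUSG00000026031, chromosome 1, 58711551 to 58758884) stood at 8.38, 7.87, 7.85, 31.4 and 16.8 normalized CPM in fed AGRP libraries and between 32.7 and 72.1, with a median of 55.6, in FD AGRP libraries. The *Cflar* ranges were separated only narrowly, by fed replicate 4 at 31.4 and FD replicate 3 at 32.7. Its log2 fold change was 1.93 ± 0.39, with 1.02 within day 46 and 47 and 2.93 within day 51 to 56. In POMC neurons *Cflar* ranged from 8.28 to 22.8 normalized CPM in fed and from 12.0 to 32.2 in FD libraries (log2 fold change 0.29 ± 0.39, 95% interval −0.53 to 1.11, q = 0.842).

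*Bax* (ENSMUSG00000003873, chromosome 7, 45461695 to 45466898), the pro-apoptotic effector among the 10 genes, was at low normalized CPM in all groups. It ranged from 3.80 to 9.86 in fed AGRP, 2.85 to 15.7 in FD AGRP, 7.91 to 17.2 in fed POMC and 6.71 to 13.6 normalized CPM in FD POMC libraries. All 4 groups overlapped, and the log2 fold changes between FD and fed mice were 0.33 ± 0.46 in AGRP and −0.18 ± 0.48 in POMC neurons (95% interval −1.19 to 0.82, q = 0.933 in the latter).

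Counted over the 10 genes in AGRP neurons, 5 were higher (*Cdkn1a*, *Gadd45a*, *Bcl2l1*, *Mcl1* and *Cflar*) and 1 lower (*Atm*) in FD mice at q below 0.05, beside 5.87% of all tested genes called higher and 4.43% called lower. Fed and FD AGRP libraries did not overlap for 5 of the 10, beside 7.65% of all tested genes. Scaling to the spike-in volume, scaling per sorted cell and the mice of day 46 and 47 alone each left 1 of the 6 calls, that of *Cdkn1a*. The genes were selected with this contrast in view, so these counts describe the selection and support nothing. In POMC neurons, a contrast whose results may also have been known at the selection, 0 of the 10 passed in edgeR, limma-voom or DESeq2, 1 (*Bcl2*) had an unadjusted edgeR p below 0.05, and 0 were without overlap. Over all tested genes 0.375% were called in POMC neurons and 2.35% were without overlap, and the share with an unadjusted p below 0.05 was not taken. The median log2 fold change of the 10 genes was 0.62 in AGRP and 0.01 in POMC neurons, where that of all tested genes was −0.02 in both. The change in AGRP less the change in POMC neurons was 6.76 ± 0.85 for *Cdkn1a*, 3.36 ± 0.85 for *Gadd45a*, 1.66 ± 0.45 for *Bcl2l1*, 1.64 ± 0.54 for *Cflar* and −1.62 ± 0.41 for *Atm* on the log2 scale, and no test of it is given because its AGRP part chose the genes.

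**Figure D2:**
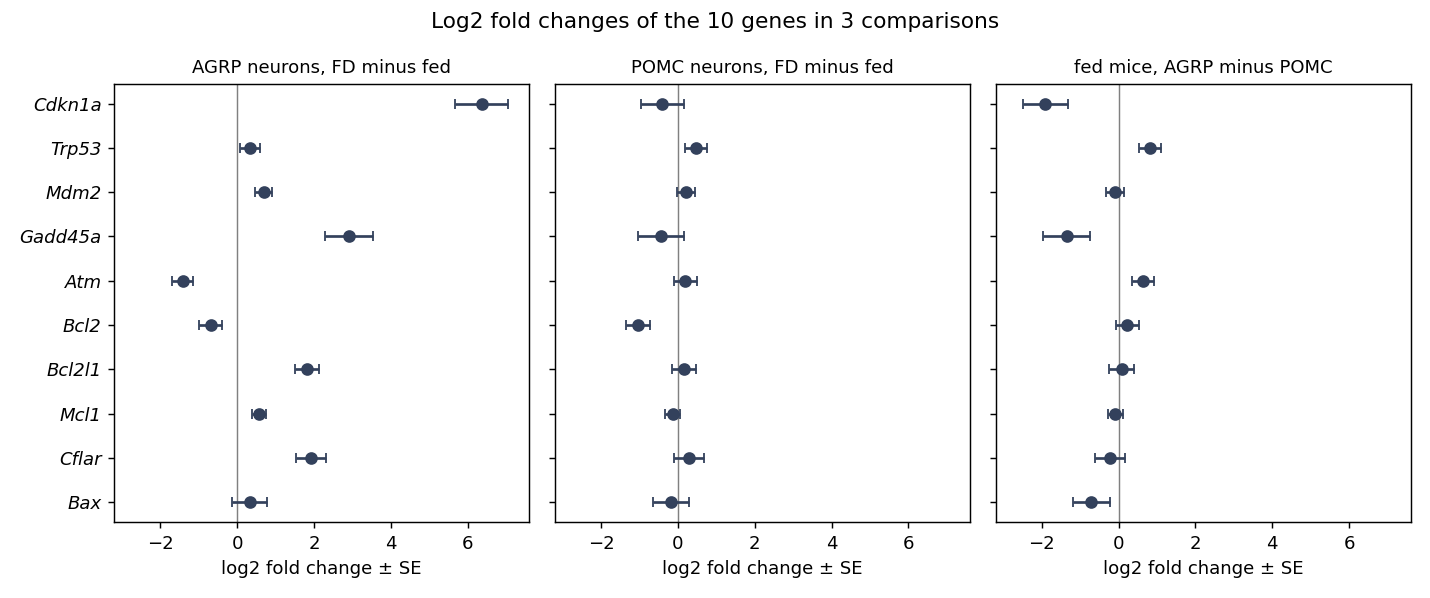
Log2 fold changes of the 10 genes with their SE as bars, for FD minus fed in AGRP neurons, FD minus fed in POMC neurons, and AGRP minus POMC neurons in fed mice. *Cdkn1a* lies at 6.36 in the first panel and −0.40 in the second, and *Bcl2* lies left of 0 in both.

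Fed AGRP and fed POMC neurons were compared to see how the 10 genes differ between the cell types without deprivation. The fed AGRP libraries are shared with the contrast in which the genes were selected, so the values for all 10 genes are not independent of it. The calls, q values and overlaps of the 10 genes given here are therefore a description and no independent support. *Cdkn1a* was lower in fed AGRP than in fed POMC neurons (log2 fold change −1.91 ± 0.58, q = 0.0391), although fed AGRP replicate 5 at 19.4 lay within the POMC range of 4.14 to 23.7 normalized CPM. The call did not hold in limma-voom (q = 0.0794), in DESeq2 (q = 0.0604) or with the 2 groups alone (q = 0.127), and the difference was −0.02 (q = 0.993) with scaling to the spike-in volume and −1.10 with scaling per sorted cell, which also lost the call. Of 12 other settings 7 kept the call, a block for age cohort among them (−2.85, q = 0.00490). It held in 2 of the 10 fits that left out 1 library, those without AGRP fed replicate 5 (−3.64, q = 2.51e-06) and without POMC fed replicate 4 (−2.16, q = 0.0151), and was lost without any one of the other 8, at log2 fold changes of −1.63 to −1.86 and q of 0.0652 to 0.111. *Trp53* had a log2 fold change of 0.81 ± 0.28 towards AGRP neurons that missed the threshold (q = 0.0798) and passed it in DESeq2 (q = 0.0348). *Gadd45a* (−1.35 ± 0.61, q = 0.212) and *Atm* (0.63 ± 0.29, q = 0.228) did not pass. In all, 0 of the 10 genes were called higher and 1 lower in fed AGRP neurons, beside 3.33% and 4.24% of all tested genes. An unadjusted edgeR p below 0.05 was found for 4 of the 10, and the share of all tested genes at such a p was not taken. *Atm* was the 1 gene of the 10 whose fed AGRP (58.6 to 73.2) and fed POMC (30.3 to 53.4) normalized CPM did not overlap, beside 8.93% of all tested genes.

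A further 99 genes of the same pathways, listed by role, were examined to set the 10 beside their neighbours, and 84 of them passed the count filter. These lists were also drawn up with earlier results of these data known, so their q values and counts are not a fresh test. The lists leave out the 10 genes themselves, *Cdkn1a* and the other called members included. List counts and medians therefore describe the remaining genes only. In AGRP neurons 4 of the 84 were higher and 4 lower in FD mice at q below 0.05, near the shares of 5.87% and 4.43% over all tested genes, and the median log2 fold change of the 84 was 0.04. The 4 lower include *Trp73*, whose call is set aside below. Among p53 target genes, 2 of 20 tested rose, 0 fell and 18 did not pass, with a median of −0.14. *Plk2*, a polo-like kinase induced by p53 and by neuronal activity, stood at 10.9, 30.1, 5.18, 6.02 and 26.8 normalized CPM in fed AGRP and between 73.1 and 206 in FD AGRP libraries, with no overlap (log2 fold change 3.00 ± 0.42, q = 1.37e-05). *Ddit4*, an inhibitor of mTORC1 signalling, ranged from 11.9 to 32.2 in fed and from 16.7 to 97.1 normalized CPM in FD AGRP libraries (1.16 ± 0.38, q = 0.0449). The *Ddit4* call held in 4 of the 11 fits that left out 1 AGRP library and was lost without FD replicate 4, 5 or 6 or fed replicate 1, 2, 3 or 5, with the lowest log2 fold change, 0.78, without FD replicate 4.

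Among p53 regulators, 1 of 17 tested rose and 2 fell, beside 5.87% and 4.43% of all tested genes, with a median of 0.27. *Hipk2*, a kinase that phosphorylates p53, ranged from 70.5 to 105 normalized CPM in fed and from 120 to 262 in FD AGRP libraries, without overlap (1.12 ± 0.19, q = 0.000134). *Prkdc*, the catalytic subunit of DNA-dependent protein kinase, ranged from 36.3 to 66.2 in fed and from 2.13 to 30.2 normalized CPM in FD AGRP libraries, again without overlap (−1.27 ± 0.35, q = 0.0156). The value of 2.13 was FD replicate 2 alone, with the next lowest at 17.6. The *Prkdc* call held in all 11 fits that left out 1 AGRP library, at q up to 0.0490. It was lost with the 2 groups alone (edgeR quasi-likelihood, q = 0.0565), within each age cohort and under both spike-in scalings. *Trp73*, the p53 relative p73, was also called lower and held 4 to 53 counts in fed AGRP libraries, 0 to 2 counts in FD AGRP libraries and 0 to 3 counts in POMC libraries. It passed the count filter only through the fed AGRP libraries, where it was high, so its call supports nothing.

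Of 11 tested CDK inhibitors and G1 genes, 0 rose and 2 fell, beside 5.87% and 4.43% of all tested genes, with a median of −0.58. Counts this small are not read as a trait of the list. *Cdkn1b*, which encodes p27 and inhibits the same kinases as p21, ranged from 47.9 to 80.5 normalized CPM in fed and from 16.8 to 50.8 in FD AGRP libraries (−1.08 ± 0.33, q = 0.0291). The *Cdkn1b* call was lost without FD replicate 3, 4 or 5 or fed replicate 1, 3 or 5, at −0.96 to −1.09. *Ccnd1*, the G1 cyclin D1, ranged from 26.4 to 62.7 in fed and from 4.13 to 17.7 normalized CPM in FD AGRP libraries, without overlap (−1.59 ± 0.51, q = 0.0439), and its call held only without FD replicate 4 or 6, over a range of −1.71 to −1.33 in the 11 fits.

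For the remaining lists, 0 of 4 genes of the GADD45 family and partners, 0 of 4 other pro-survival BCL2 family genes and 0 of 9 other pro-apoptotic BCL2 family genes passed the edgeR test in AGRP neurons, with 0, 2 and 1 at an unadjusted p below 0.05. The share of all tested genes at such a p was not taken. The median log2 fold changes of these lists were −0.08, 0.44 and −0.03. Of 19 caspases, inhibitors and death receptor genes, 1 rose and 0 fell, beside 5.87% and 4.43% of all tested genes. It was *Cycs*, cytochrome c, an electron carrier that also activates caspases once outside mitochondria, at 13.9 to 28.4 normalized CPM in fed and 26.2 to 73.6 in FD AGRP libraries (1.16 ± 0.29, q = 0.00853), which overlapped. Scaling to spike-ins left 0 of these 8 pathway calls.

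**Figure D3:**
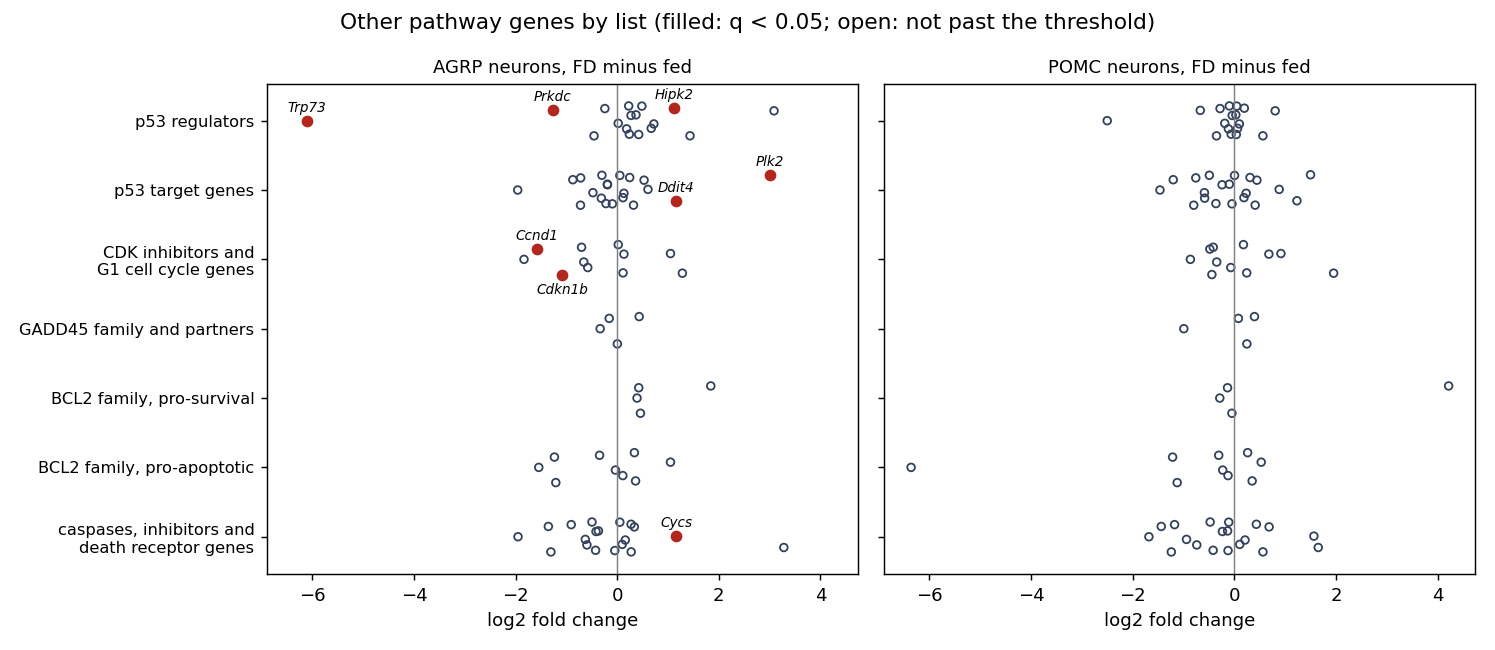
Log2 fold changes of the 84 tested pathway genes by list, for FD minus fed in AGRP neurons (left) and POMC neurons (right), with genes at q below 0.05 filled and named. In AGRP neurons 8 points are filled, 4 on each side of 0, and in POMC neurons none is filled.

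In POMC neurons 0 of the 84 pathway genes passed the edgeR test, beside 0.375% of all tested genes, and DESeq2 called 2 and limma-voom 0. An unadjusted edgeR p below 0.05 was found for 10 of the 84. The share of all tested genes at such a p was not taken, so this count cannot be set beside it. The median log2 fold change of the 84 was −0.10. The change differed between the cell types for 4 of the 84 genes at q below 0.05, beside 6.71% of all tested genes. These were *Plk2* (AGRP change less POMC change 3.49 ± 0.57, q = 0.000186), *Cycs* (1.58 ± 0.41, q = 0.0179), *Hipk2* (1.02 ± 0.27, q = 0.0171) and *Sesn1*, a stress-induced regulator of mTORC1 named here after its values were seen (−1.19 ± 0.37, q = 0.0473). The *Sesn1* call held in 7 of the 21 fits that left out 1 library, where its difference ranged from −1.35 to −0.87, and it was lost with sorted cells as a covariate, with the spike-in set as a block and under both spike-in scalings. It was lost without any one of the fed AGRP libraries, of AGRP FD replicates 2, 3 and 6, of POMC FD replicates 1 and 2, and of POMC fed replicates 1, 2, 3 and 5. *Plk2*, *Cycs* and *Hipk2* were called in all 21 fits, and scaling to the spike-in volume ended the 3 calls. Those of *Cycs* and *Hipk2* were also lost with scaling per sorted cell and on log2(TPM + 1). In fed mice 2 of the 84 were higher in AGRP than in POMC neurons and 1 lower, beside 3.33% and 4.24% of all tested genes, and these 3 calls were 8 in limma-voom, 7 when the 2 groups were fitted alone and 1 with a block for age cohort. *Btg2*, an antiproliferative p53 target, was higher (2.14 ± 0.35, q = 5.77e-05), as was the cyclin *Ccnd2* (1.76 ± 0.54, q = 0.0414), and *Plk2* was lower (−1.32 ± 0.41, q = 0.0403), the first 2 being named after their values were seen. With 1 library left out the *Btg2* call held in 10 of 10 fits. The *Ccnd2* call held in 3 of 10 (1.48 to 2.09), and was lost without AGRP fed replicate 3, 4 or 5 or POMC fed replicate 1, 2, 3 or 5. The *Plk2* call held in 4 of 10 (−1.69 to −1.10), and was lost without AGRP fed replicate 1, 3 or 4 or POMC fed replicate 1, 2 or 4.

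The genes whose level followed that of *Cdkn1a* most closely across the 21 libraries were sought among 8199 genes with a mean above 20 normalized CPM in at least 1 group, by Pearson's r of log2(normalized CPM + 1). They were *Gcnt2* (0.948), *Stt3b* (0.933), *Scg2* (0.915), *Rbbp7* (0.915) and *Rab3b* (0.913), as a description over libraries that fall into 4 groups and share the contrast between FD AGRP libraries and the rest. *Gcnt2*, a glycosyltransferase, averaged 11.6 ± 5.03 in fed AGRP, 109 ± 33.8 in FD AGRP, 25.0 ± 11.9 in fed POMC and 26.0 ± 6.02 normalized CPM in FD POMC libraries. *Scg2*, the secretory granule protein secretogranin II, averaged 1426 ± 286 in fed AGRP and 6832 ± 2167 normalized CPM in FD AGRP libraries. By Spearman's rank correlation *Rab3b* ranked 4, *Gcnt2* 13, *Stt3b* 18, *Scg2* 20 and *Rbbp7* 43. Of the 8 other members that met this mean, *Cflar* (0.82) and *Bcl2l1* (0.82) came nearest to *Cdkn1a* and *Atm* (−0.79) was farthest.

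Settings other than the one reported moved the *Cdkn1a* difference in AGRP neurons over a range of 4.15 to 8.24 on the log2 scale, and each gave a higher level in FD mice.

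**Figure D4:**
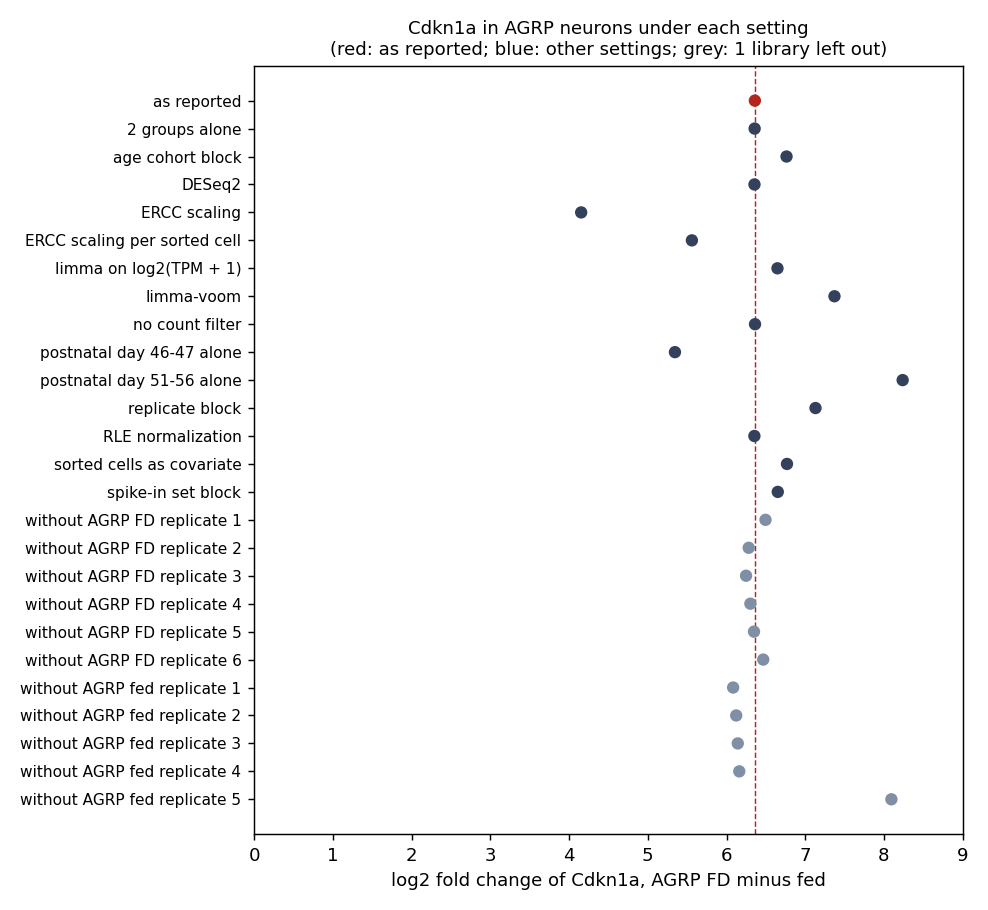
Log2 fold change of *Cdkn1a* between FD and fed AGRP neurons under each setting and with each AGRP library left out in turn, with a dashed line at the reported value. Every point lies between 4.15 and 8.24, with the lowest under scaling to the spike-in volume and the highest within mice of postnatal day 51 to 56.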

How the data were processed

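Libraries from 21 mice, made from AGRP or POMC neurons by RNA-Seq, were grouped by the sample labels into fed and FD mice of each cell type. The authors trimmed reads (cutadapt 1.7.1), removed abundant sequences (Bowtie2 2.1.0), aligned to mm10 (STAR 2.4.0i) and made the deposited counts with HTSeq 0.6.1p1, without strand and without normalization. The authors derived the deposited TPM from these counts by summed exon length. Reads on no annotated gene were 24.2% to 52.1% of all counted reads, spike-ins included, and were left out.

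Genes with CPM over 1 in at least 3 libraries were kept, scaled by TMM and fitted with 1 edgeR 4.0.16 quasi-likelihood model of 4 groups in R 4.3.3. Tests were two-sided, with Benjamini-Hochberg q over 16513 genes and calls at q below 0.05. Alternatives were limma 3.58.1 (limma-voom, and log2(TPM + 1)), DESeq2 1.42.0, RLE scaling, no filter, 2 groups alone, blocks for replicate number, age cohort and spike-in set, sorted cells as a covariate, ERCC scaling, and libraries left out, and the script was tested on simulated data. Summaries used Python 3.11.15. Each library came from 1 mouse, with 9822298 to 37663979 gene counts.

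The 10 genes and the lists were chosen with earlier results of these data known. Named were every member, up to 3 genes per list with the largest AGRP change at q below 0.05, list genes at q below 0.05 in POMC neurons, and the 5 genes most like *Cdkn1a*. Same-numbered libraries did not all deviate together, so the numbers were not used as pairs. Scaling to spike-ins per sorted cell was added after the values were seen.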

Additional observations from a re-analysis of the deposited data

Results flagged for a closer look

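Over the 10 genes and 4 groups, 40 sets of 5 or 6 libraries were checked for a library that stands apart from its group by Dixon's criterion, which chance meets in about 1 of 20 sets, and 3 did so. *Cdkn1a* in AGRP fed replicate 5 was at 19.4 normalized CPM, with the nearest fed AGRP library at 2.13. *Cdkn1a* in POMC fed replicate 4 was at 4.14 normalized CPM, with the nearest fed POMC library at 21.4. *Mdm2* in POMC FD replicate 5 was at 181 normalized CPM, with the nearest FD POMC library at 120.

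Of the pathway genes named for their AGRP change, 3 also passed the edgeR interaction test between AGRP and POMC neurons. The AGRP part of this difference is what named them, so the values are a description and no independent support. AGRP change less POMC change on the log2 scale was 1.02 for *Hipk2*, 3.49 for *Plk2* and 1.58 for *Cycs*.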

How the results depend on the processing

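In AGRP neurons the *Cdkn1a* log2 fold change of 6.36 was 4.15 with scaling to the ERCC volume and 8.24 within day 51 to 56, and 6.08 to 8.09 with 1 library left out. The 6 member calls became 1 under ERCC scaling by volume and per sorted cell and within day 46 and 47, and 5 to 7 with 1 library left out, and *Mcl1* turned to −0.46 under ERCC scaling. The 8 pathway calls became 0 under both ERCC scalings and within day 46 and 47, 4 within day 51 to 56, and 5 to 8 with 1 library left out. On log2(TPM + 1) they were 3 higher and 8 lower. No member was called in POMC neurons under any of these alternatives, and DESeq2 called 2 pathway genes there. In fed mice the 1 member call became 0 in limma-voom, with 2 groups alone and under both ERCC scalings, 2 on log2(TPM + 1), and 0 to 1 with 1 library left out. The 3 pathway calls there became 7 with 2 groups alone and on log2(TPM + 1), 8 in limma-voom, 5 in DESeq2, 1 with the age cohort as a block, 0 under ERCC scaling per cell, and 1 to 3 with 1 library left out. The 4 pathway differences between the cell types became 0 and 1 under ERCC scaling by volume and per cell.

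Of member values that did not pass, these changed sign. In AGRP neurons *Trp53* was −0.89, *Mdm2* −0.51 and *Bax* −0.69 under ERCC scaling by volume, and *Bax* was −0.06 on log2(TPM + 1). In POMC neurons under ERCC scaling by volume and per cell they were *Trp53* (−0.94, −0.66), *Mdm2* (−0.98, −0.85), *Atm* (−1.22, −0.97), *Bcl2l1* (−1.33, −1.23) and *Cflar* (−1.05, −0.91), where the median of all genes moved to −1.28 and −1.11. *Mdm2* was −0.20 and *Bcl2l1* −0.30 within the 1 µl set, *Bcl2l1* was −0.062 in limma-voom and −0.047 to 0.349 with 1 library left out, and *Bax* was −0.32 to 0.02. In fed mice *Mdm2* (1.10, 0.29), *Mcl1* (0.904, 0.093) and *Cflar* (0.81, 0.15) turned under both ERCC scalings and *Gadd45a* (0.09) by volume, where the median moved to 0.82 and 0.08. On log2(TPM + 1) *Mdm2* was 0.15 and *Mcl1* 0.10, with the age cohort as a block *Bcl2* was −0.10 and *Bcl2l1* −0.05, and with the spike-in set as a block *Bcl2l1* was −0.27 and *Mcl1* 0.017. With 1 library left out *Mdm2* was −0.21 to 0.15 and *Bcl2l1* −0.036 to 0.203. The cause of these changes was not tested.

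The replicate numbers did not pair the libraries, since correlations of the deviations of same-numbered libraries ran from −0.19 to 0.12. With the replicate block, *Cdkn1a* in AGRP neurons was 7.13, and 6 members and 6 pathway genes were called. Spike-in counts per microlitre were 0.27% to 1.46% of gene counts in the 1 µl set, 0.89% to 2.26% in the 10 µl set and 0.07% to 0.63% in the set dosed by cells, which limits the ERCC scalings.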
